A study of Mus musculus with 6 samples.

Results

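Klhl13, which encodes an adaptor of the CUL3 ubiquitin ligases, was examined together with 4 partner genes: Klhl9 and Klhl21, which encode adaptors of the same kind, Cul3, which encodes the scaffold, and Rbx1, which encodes the RING subunit. The 5 genes were taken by row name from a table of 24421 genes. Klhl13 was chosen by its measured fold change between SRF KO and WT cells, and the partners were chosen for their known place in its ligase, with results of these data known. The fold changes of the 5 genes are therefore given as a description, without p-values, and their calls in the fit over all genes are counted only to be set beside the share of all genes. The study deleted serum response factor (SRF), a transcription factor of cytoskeletal and immediate-early genes, in mouse iPSCs (induced pluripotent stem cells), made by returning body cells to a state that resembles embryonic stem cells. Bulk RNA sequencing gave 3 libraries of SRF KO cells (genotype SRFΔ/Δ) and 3 of WT cells, whose SRF gene carries the conditional allele in its intact form (SRFf/f). Both kinds of cell were kept in medium with serum. The labels do not say how the gene was deleted, whether a group is 1 clone, or whether the replicates are separate cultures, so the spread between libraries may be technical.

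A cullin-RING ligase attaches ubiquitin to proteins. CUL3 is its scaffold, RBX1 holds the ubiquitin-charged enzyme at one end, and a BTB-Kelch protein at the other end binds CUL3 through its BTB domain and the substrate through its Kelch repeats. KLHL9 and KLHL13 are close relatives that act together in mitosis, where with CUL3 they ubiquitylate the kinase Aurora B and help to move the chromosomal passenger complex off the chromosomes. KLHL21 acts on the same kinase at the spindle midzone. In mouse pluripotent cells the X-linked Klhl13 has also been studied as a regulator of pluripotency and differentiation.

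In the GRCm38 assembly, which is the mm10 build that the submitters name, Klhl13 lies on the minus strand at chrX:23219271-23365082, a span of 145812 bases with 7 annotated transcripts, 5 of them coding. Klhl9 lies at chr4:88718292-88722465 on the minus strand and consists of 1 exon. Klhl21 is at chr4:152008803-152017680 on the plus strand, Cul3 at chr1:80264923-80340480 on the minus strand and Rbx1 at chr15:81466296-81476369 on the plus strand. Since Klhl13 and Klhl9 are paralogs, their coding sequences were compared to see whether reads could pass from one to the other. They were identical at 1502 of 1839 aligned bases (81.7%), against 59.4% for Klhl13 and Klhl21 and 61.0% for Klhl9 and Klhl21. The longest identical run shared by any annotated coding transcripts of Klhl13 and Klhl9 was 22 bases, far under the read length of 150 bases. The stretch of 100 coding bases around that run is printed with the 12 bases that differ between the genes in capitals. It is at chrX:23235586-23235685 (minus strand) in Klhl13 and at chr4:88721123-88721222 (minus strand) in Klhl9, within 1 exon in both.
Klhl13: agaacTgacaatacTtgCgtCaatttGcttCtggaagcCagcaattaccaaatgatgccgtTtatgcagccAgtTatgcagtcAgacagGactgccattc
Klhl9: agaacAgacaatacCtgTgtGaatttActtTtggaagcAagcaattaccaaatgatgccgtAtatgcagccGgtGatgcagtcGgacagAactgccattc
Differences stood on both sides of the shared run, so that an intact read of full length from either gene carries bases that tell the genes apart.

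Since SRF binds the CArG box, an A/T-rich motif bounded by CC and GG that reads the same on both strands, windows from 250 bases before to 50 bases after each RefSeq start site (GRCm38.p6) were searched for it. All 5 genes matched an entry, with 5 windows for Klhl13 and 1 for each partner. None of these 9 windows held an exact CArG box. Of all 32851 windows in the RefSeq table, 1.63% held at least 1 exact match. The window of Srf itself held 2, starting 82 and 62 bases before its start site. Allowing 1 mismatch, the third Klhl13 window held 2 matches and the Rbx1 window held 1, and 21.1% of all windows held at least 1. The 250 bases upstream of the outermost Klhl13 start (chrX:23365083-23365332, minus strand) and of the internal start whose window held the near matches (chrX:23285808-23286057, minus strand) are printed to show what was searched, with the near matches in capitals.
Klhl13 outermost start: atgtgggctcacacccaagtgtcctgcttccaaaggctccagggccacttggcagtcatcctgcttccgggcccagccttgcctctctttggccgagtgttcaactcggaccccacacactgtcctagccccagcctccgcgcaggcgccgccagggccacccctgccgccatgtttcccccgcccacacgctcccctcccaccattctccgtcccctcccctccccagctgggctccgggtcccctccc
Klhl13 internal start: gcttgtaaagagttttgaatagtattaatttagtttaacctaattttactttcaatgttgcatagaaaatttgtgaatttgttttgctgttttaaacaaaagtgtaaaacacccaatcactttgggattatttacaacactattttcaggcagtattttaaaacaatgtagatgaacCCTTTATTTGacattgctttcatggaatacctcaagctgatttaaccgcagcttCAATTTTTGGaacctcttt
The window of the outermost start was rich in G and C (69.0%), and that of the internal start was not (33.7%). Such matches describe these letters only, and sites farther from the starts were not searched.

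Klhl13 had 10803, 8320 and 8427 counts in WT replicates 1 to 3 and 1031, 1032 and 1152 counts in SRF KO replicates 1 to 3. In CPM, that is counts scaled to a common library total (here adjusted by TMM, the trimmed mean of M values), its level was 298.3, 323.4 and 293.8 in WT and 38.3, 39.0 and 39.8 in SRF KO. Every SRF KO library lay far below every WT library. The mean was 305.2 ± 15.97 CPM in WT and 39.0 ± 0.756 CPM in SRF KO (SD, n = 3), so that SRF KO cells held 12.8% of what WT cells held. On the log2 scale, SRF KO over WT was at -2.97 (SE 0.06), and it was between -2.99 and -2.92 when each library in turn was left out. Among 12344 genes with a mean of at least 50 counts, Klhl13 had the third lowest fold change, between Wnt7b at -3.05 and Fos at -2.93. In bulk RNA, fewer cells that express a gene and less RNA per cell cannot be told apart. For comparison, the targeted gene Srf had a mean of 34.5 ± 4.14 CPM in WT against 3.97 ± 0.707 CPM in SRF KO (SD, n = 3).

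The partner adaptors differed much less. Klhl9 was at 95.9, 103.5 and 94.7 CPM in WT and at 87.9, 87.3 and 87.8 CPM in SRF KO. The groups did not overlap, but the distance was small, with a log2 fold change of -0.16 (SE 0.05). SRF KO cells thus held 89.4% of the WT level of the gene most similar to Klhl13. Klhl21, the adaptor of the midzone, was at 43.7, 34.5 and 43.6 CPM in WT and at 35.2, 34.1 and 35.5 CPM in SRF KO. Here WT replicate 2 fell among the SRF KO values, and the log2 fold change was -0.22 (SE 0.09) with all libraries and -0.32 without WT replicate 2.

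The core of the ligase was at similar levels in both groups. Cul3 was at 159.6, 196.9 and 160.5 CPM in WT and at 156.5, 169.3 and 167.1 CPM in SRF KO. WT replicate 2 was the highest library, and 2 of the 3 SRF KO values lay above the other WT values. The log2 fold change of Cul3 was -0.07 (SE 0.08), with a 95% interval from -0.24 to 0.10, and it turned to 0.04 without WT replicate 2. Rbx1 was at 66.4, 59.9 and 60.9 CPM in WT and at 63.9, 65.0 and 64.6 CPM in SRF KO, so that the SRF KO values lay within the WT range. Its log2 fold change was 0.05 (SE 0.05), with a 95% interval from -0.07 to 0.17. These intervals hold no change of the size seen for Klhl13.

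All 5 genes passed the filter on low counts, and 4 had a negative fold change. At an adjusted p under 0.05 in edgeR's quasi-likelihood test over all entries, 2 of the 5, Klhl13 and Klhl9, counted as lower and the others did not pass. Of all 14778 genes tested 42.4% were called, 21.3% as lower and 21.2% as higher. For 2 of the 5 the groups did not overlap, against 52.7% of all genes. The contrast chose Klhl13, so nothing is read from these counts. Leaving out any single SRF KO library or WT replicate 1 ended the call of Klhl9, as did DESeq2. In those fits from 31.6% to 37.1% of all genes were called. Klhl21 was also called as lower without WT replicate 2, with a replicate block, when only gene entries were fitted and when genes of low count were kept. There 49.7%, 50.8%, 43.1% and 32.1% of all genes were called, in the same order.

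**Figure D1:**
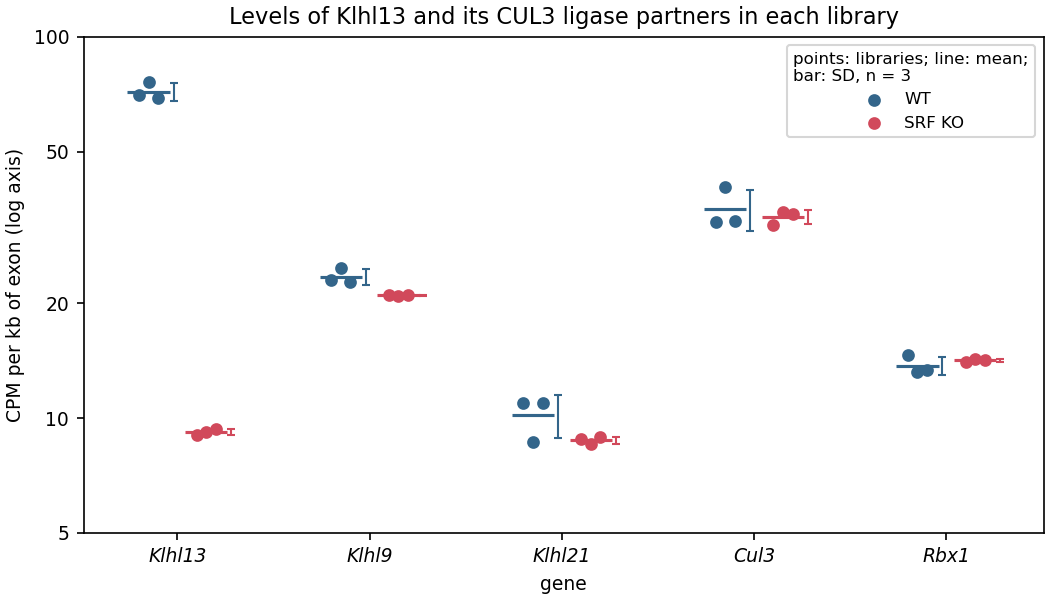
Level of the 5 genes in each library, in CPM per kb of annotated exon on a log axis. Points are libraries, lines are group means and bars are the SD (n = 3). Klhl13 separates into a WT group between 69.1 and 76.0 and an SRF KO group between 9.01 and 9.36, while the groups of Klhl21, Cul3 and Rbx1 overlap.

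To compare levels between genes, CPM was divided by the length of all annotated exons in kb. In WT cells Klhl13 was the highest of the 5, at 71.8 ± 3.76 CPM per kb, followed by Cul3 at 35.4 ± 4.37, Klhl9 at 23.5 ± 1.14, Rbx1 at 13.7 ± 0.772 and Klhl21 at 10.2 ± 1.32 (SD, n = 3). In SRF KO cells Cul3 was the highest at 33.7 ± 1.41 CPM per kb, then Klhl9 between 20.9 and 21.06, Rbx1 at 14.2 ± 0.120, while Klhl13 at 9.18 ± 0.178 stood next to Klhl21 at 8.76 ± 0.184 (SD, n = 3). In SRF KO, Klhl13 was between 9.01 and 9.36 and Klhl21 between 8.55 and 8.90, so the values of these neighbours in the order lay close without overlap. The place of Rbx1 depends on the length used, since its annotated exons (4.55 kb) include retained introns. Per kb of the longest coding transcript (1.68 kb) Rbx1 was at 37.3 ± 2.10 in WT and 38.5 ± 0.327 in SRF KO (SD, n = 3). Cul3 on that scale was at 36.6 ± 4.52 in WT and 34.9 ± 1.46 in SRF KO, so that in WT the scaffold and the RING subunit differed by less than the SD of Cul3. In SRF KO, Rbx1 was between 38.2 and 38.8 and Cul3 between 33.2 and 36.0 on that scale, which puts Rbx1 and not Cul3 highest there. Klhl13 remained the highest of the 5 in WT on that scale, at 91.1 ± 4.77 (SD, n = 3). In SRF KO it was at 11.7 ± 0.226 on that scale, less close to Klhl21 at 8.76 ± 0.184 (SD, n = 3).

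The change reordered the adaptors among themselves. Klhl13 was 3.05, 3.07 and 3.04 times as abundant as Klhl9 per kb of exon in WT replicates 1 to 3, and 0.428, 0.438 and 0.445 times as abundant in SRF KO replicates 1 to 3. This ratio within a library does not depend on how libraries are scaled. Of the summed level of the 3 adaptors, Klhl13 made up 68.0% ± 1.18 in WT and 23.6% ± 0.321 in SRF KO (SD, n = 3). Klhl9 made up 22.3% ± 0.289 in WT and 53.9% ± 0.379 in SRF KO. The sum itself was 105.0 ± 3.59 CPM per kb in WT and 38.9 ± 0.337 in SRF KO. The mean levels of Klhl9 and Klhl21 were not higher in SRF KO, so the larger share of Klhl9 came with the smaller sum. Among 36 BTB-Kelch adaptor genes that passed the filter and had 1 entry in the annotation, Klhl13 ranked 1 in WT and 8 in SRF KO. In WT it exceeded Ivns1abp (62.7 CPM per kb), which encodes another adaptor of the family, but by the longest coding transcript Ivns1abp was at 97.1 and Klhl13 at 91.1.

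**Figure D2:**
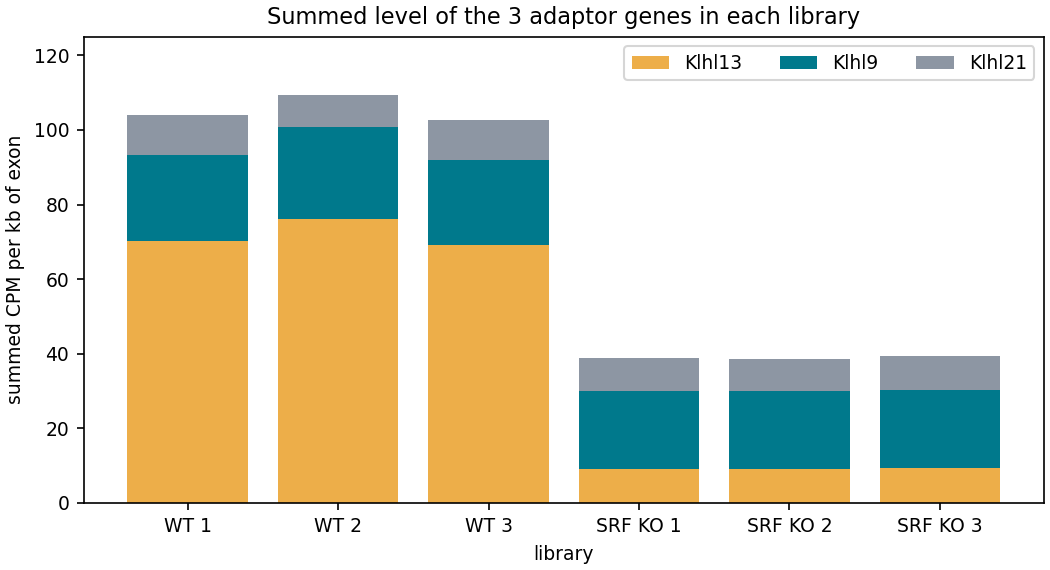
Summed level of the 3 adaptor genes in each library, in CPM per kb of annotated exon, with 1 bar per library split by gene. The bars of the WT libraries reach between 102.7 and 109.5 and those of SRF KO between 38.6 and 39.3, with nearly all of the difference in the Klhl13 part.

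The spread between replicate libraries was also compared for these genes, since noise in expression is named in the title of the study. Each bulk library averages over many cells, so this spread does not measure noise between cells. The coefficient of variation of the CPM values in SRF KO was 1.94% for Klhl13, 0.391% for Klhl9, 2.11% for Klhl21, 4.17% for Cul3 and 0.848% for Rbx1. For all but Cul3 this lay below the error of counting alone, which was between 2.04% and 3.23% for those 4 genes. In WT the coefficients were 5.23%, 4.86%, 12.99%, 12.4% and 5.63% in the same order. WT replicate 2, which stood apart from the other WT libraries (chi-square per degree of freedom of 12.2 and 14.6 against it, 3.64 between the others), was the highest WT library for Klhl13, Klhl9 and Cul3 and the lowest for Klhl21 and Rbx1. Without it, the WT coefficients were 1.09%, 0.902%, 0.268%, 0.364% and 6.19%, over 2 libraries. The larger spread of Klhl13, Klhl9, Klhl21 and Cul3 in WT thus came with that library.

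The wider machinery was described by 7 lists of genes. Of 34 tested members of the other BTB-Kelch adaptors (47 listed), 7 were higher and 7 lower in SRF KO, a share of 41.2% against the 42.4% of all genes. Their median log2 fold change was -0.07, against -0.01 over all genes tested, and the lowest was -0.94, so that no other tested adaptor of this family had a fold change near that of Klhl13. Klhl24, whose protein controls keratin turnover, fell from 109.5 ± 7.32 to 81.5 ± 3.64 CPM (SD, n = 3; log2 fold change -0.43, SE 0.06, edgeR adjusted p 0.000161). Kbtbd2, an adaptor for the regulatory subunit of PI3-kinase, fell by 0.36 and Klhl8 fell by 0.47 on the log2 scale (edgeR adjusted p 0.000184 and 0.0012). Klhl26 rose by 0.43 (edgeR adjusted p 0.00101). Leaving out SRF KO replicate 1 left 4 genes higher and 3 lower. Leaving out SRF KO replicate 2 left 4 lower, and leaving out SRF KO replicate 3 left 4 higher. In these fits 31.6%, 35.9% and 32.0% of all genes were called, in the same order.

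Of the 26 tested genes among other BTB adaptors of CUL3 (27 listed), 5 passed in each direction (38.5%, beside 42.4% of all genes), at a median log2 fold change of -0.12. Kctd10 rose from 48.5 ± 4.44 to 66.6 ± 3.09 CPM (SD, n = 3; log2 fold change 0.46, edgeR adjusted p 0.000316). Spop, an adaptor that carries a MATH domain, rose by 0.24 on the log2 scale (edgeR adjusted p 0.00346). Kctd2 fell by 0.39 (edgeR adjusted p 0.00117). Without WT replicate 2, 12 genes of this list were lower, and with a replicate block 9. In these fits 49.7% and 50.8% of all genes were called.

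Of the common cullin machinery, 12.5% of the other cullin and RING genes, 6.67% of the neddylation genes and 11.1% of the COP9 signalosome genes were called, beside 42.4% of all genes, with no test of these differences. Among the 8 other cullin and RING genes, 1 was lower, the X-linked scaffold gene Cul4b, which went from 505.1, 618.4 and 512.6 CPM in WT to 383.8, 417.7 and 390.3 CPM in SRF KO (log2 fold change -0.46, SE 0.07, edgeR adjusted p 0.0005). The neddylation cycle attaches NEDD8 to cullins, removes it and exchanges their adaptors. Of its 15 genes 1 was lower, Senp8, the protease that processes NEDD8, at a log2 fold change of -0.56 (edgeR adjusted p 0.000842). Of 9 genes of the COP9 signalosome, which takes NEDD8 off cullins, Cops8 alone was called, as higher by 0.20 (edgeR adjusted p 0.0219). The call of Cops8 was lost without SRF KO replicate 1 (adjusted p 0.118) and without SRF KO replicate 3 (adjusted p 0.0782). Without WT replicate 2, the cullin list had 2 genes higher and 2 lower, the neddylation list 1 higher and 2 lower and the COP9 list 2 higher, at a median of 0.0585. Without WT replicate 3 the neddylation list had 1 higher and 2 lower and the COP9 list 2 higher. With a replicate block, 1 cullin gene was higher and 2 lower, 1 neddylation gene was higher and 4 lower, and 2 COP9 genes were higher. Of all genes, 49.7% were called without WT replicate 2, 39.7% without WT replicate 3 and 50.8% with a replicate block.

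On the substrate side, Aurkb, which encodes Aurora B, was at 83.7, 84.7 and 91.1 CPM in WT and at 72.6, 68.3 and 73.8 CPM in SRF KO (log2 fold change -0.27, SE 0.05, edgeR adjusted p 0.00189). Its groups did not overlap, as was so for 52.7% of all genes. Aurkb was the 1 gene called among the 4 of the chromosomal passenger complex (25.0%, beside 42.4% of all genes), and Incenp, Birc5 and Cdca8 had fold changes between -0.09 and -0.06 on the log2 scale. The groups of Cdca8 did not overlap either. These are RNA levels, while the ligase acts on protein. Of 14 genes of the midzone and cytokinesis, 6 were lower and the others did not pass, with a median log2 fold change of -0.16. The share called was 42.9%, all of it lower, beside 21.3% of all genes called as lower and 42.4% called in either direction. This difference was not tested. Without WT replicate 2 the median of this list was -0.105 and 1 gene was higher, while 49.7% of all genes were called. Kif23 and Racgap1, the motor and the GTPase-activating protein of centralspindlin, fell by 0.35 and 0.17 on the log2 scale (edgeR adjusted p 0.000512 and 0.00928). Cep55, needed for abscission, fell by 0.36 and the meiotic kinase gene Aurkc, at 2.10 CPM in WT, fell by 1.12 (edgeR adjusted p 0.00102 and 0.00136). The call of Racgap1 was lost without SRF KO replicate 1 (adjusted p 0.0504).

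**Figure D3:**
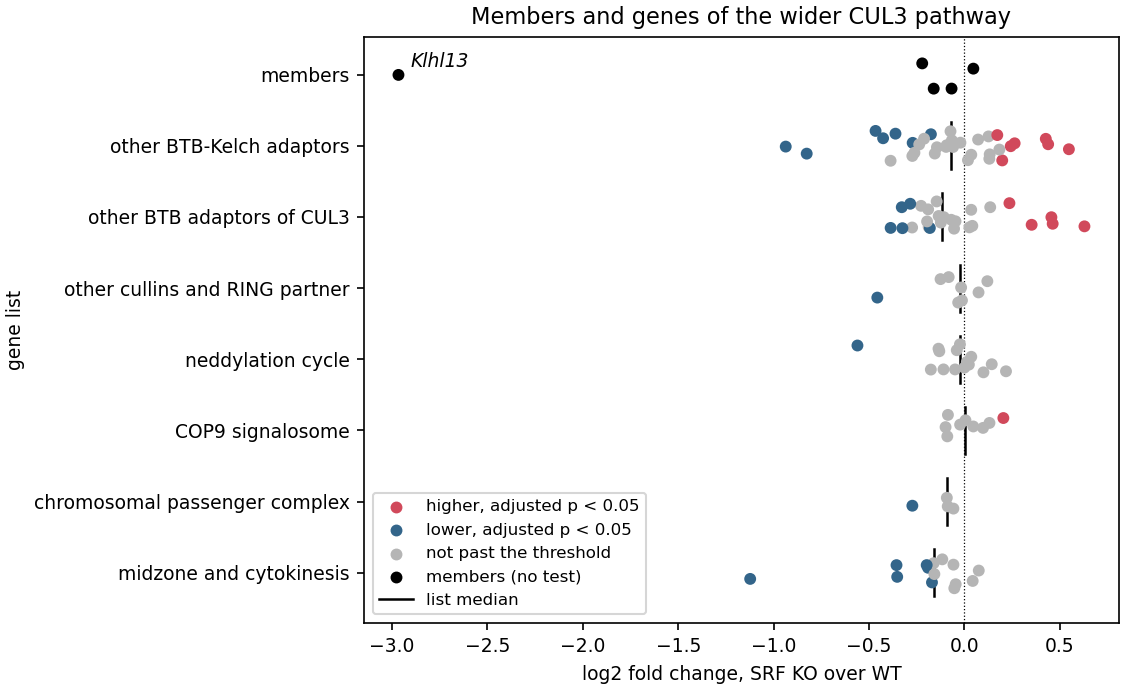
Log2 fold change of SRF KO over WT for the 5 members and the tested genes of the 7 lists, with 1 point per gene, colours for calls at an adjusted p under 0.05 and vertical bars for list medians. Klhl13 at -2.97 lies apart from all other points, of which the lowest is Aurkc at -1.12.

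Because Klhl13 is X-linked, its neighbours and its chromosome were examined. Of 512 tested X-linked genes, 111 were higher and 101 lower (41.4%, against 42.6% of autosomal genes), and their median log2 fold change was -0.00393, against -0.0124 for autosomal genes. Klhl13 had the lowest fold change of the chromosome, and the next was Gm9 at -2.35. Wdr44, the nearest tested gene at 328 kb, had a log2 fold change of 0.05 and was not called (edgeR adjusted p 0.708). On the other side, at lower coordinates, Slc6a14, an amino acid transporter gene at 1.48 Mb, and Agtr2, an angiotensin receptor gene at 1.73 Mb, were higher by 2.42 and 1.68 on the log2 scale, from levels under 0.5 CPM in WT (edgeR adjusted p 0.000218 and 8.5e-05). The WT libraries of Slc6a14 (10, 15 and 5 counts) would not have passed the filter on low counts alone, so the filter favoured its direction. Farther out at lower coordinates Gm5124, Zfp300 and Zfp182 were not called. On the side of Wdr44, the next tested genes began 12.5 Mb away, where Dock11 was lower by a log2 fold change of -0.50, Il13ra1 was higher at 0.61, and Zcchc12 and Lonrf3 were not called. Lonrf3 was called as higher without WT replicate 2 and with a replicate block (edgeR adjusted p 0.0055 and 0.0318). Of these 10 neighbours, Dock11 alone was lower, while Slc6a14, Agtr2 and Il13ra1 were higher. Beside this, 101 of the 512 X-linked genes and 21.3% of all genes were lower, so nothing is read from this count.

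**Figure D4:**
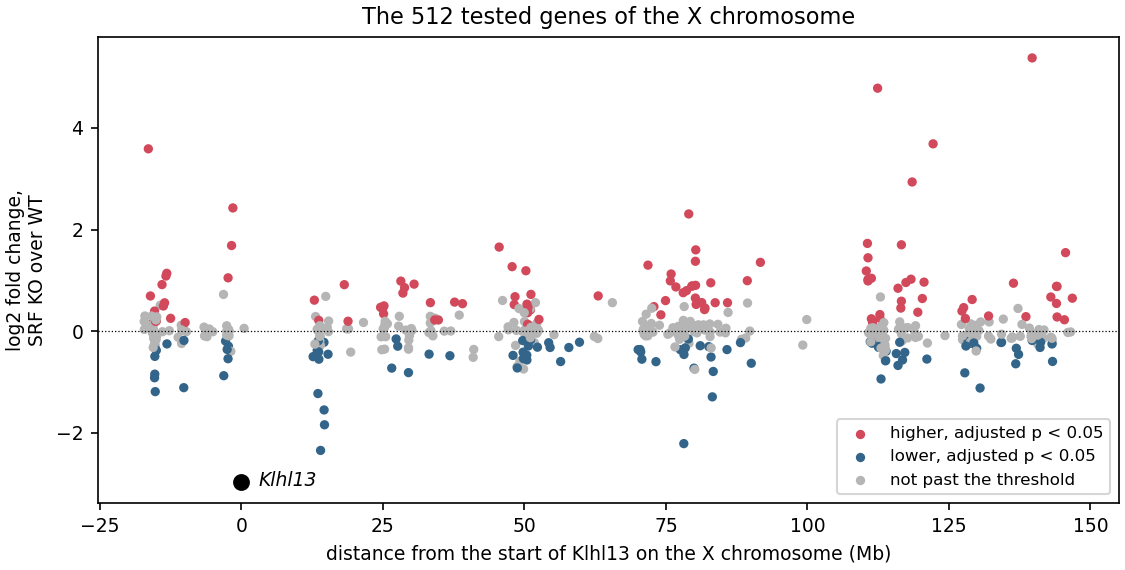
Log2 fold change of SRF KO over WT for the 512 tested genes of the X chromosome, plotted against their distance in Mb from the start of Klhl13. Most points lie near 0 along the whole chromosome, and Klhl13 is the lowest point at -2.97.

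Of 6 tested genes of X inactivation and X dosage, 4 were higher and 1 lower in SRF KO (83.3% called, beside 42.4% of all genes). Xist, the RNA that coats an inactive X chromosome, was at 20.2, 20.2 and 22.9 CPM in WT and at 39.8, 37.1 and 41.1 CPM in SRF KO (log2 fold change 0.90, SE 0.07, edgeR adjusted p 2.16e-06). Tsix, which is transcribed antisense to Xist, was higher by 1.37 on the log2 scale, and without a known strand setting reads of Xist and Tsix cannot be told apart where they overlap. Jpx, at 0.122 CPM in WT, and Ftx, both noncoding genes near Xist, were higher by 1.60 and 0.52, while Dusp9, an X-linked phosphatase gene, was lower at -0.48 (edgeR adjusted p 0.00524, 0.000754 and 0.000929). The WT libraries of Jpx would not have passed the filter on low counts alone, so the filter favoured its direction. Jpx was not called by DESeq2 (adjusted p 0.0537). Since Xist and Tsix may also share reads, nothing is read from the share of this list that was called. Rlim was not called (edgeR adjusted p 0.0835), but was higher without WT replicate 2 and with a replicate block. Of 8 listed Y-linked genes 5 were tested and 3, Kdm5d, Eif2s3y and Uba1y, were higher in SRF KO (60.0% called, beside 42.4% of all genes), while Uty and Ddx3y were not called. The calls of Kdm5d and Uba1y were lost when either SRF KO replicate 1 or WT replicate 1 was dropped, and Uty was called as higher without WT replicate 2. The Y-linked genes summed to between 13.6 and 16.2 CPM in WT and between 18.2 and 19.3 CPM in SRF KO, and Zfy2 was at 0 in every library. Zfy1 had between 2 and 8 counts and Usp9y between 0 and 6, and neither was tested. The labels give no sex for the cells, and the part of these genes in the fall of Klhl13 was not tested.

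To find genes whose pattern resembled that of Klhl13, log2(CPM + 0.5) profiles over the 6 libraries were centred on each gene's mean and compared by Euclidean distance among 12344 genes. The measure uses the same fold change that chose Klhl13, so near genes had to be strongly lowered. The nearest was Fos, an immediate-early gene known as an SRF target, at a distance of 0.20 log2 units. Fos was also close in absolute terms, at 321.3 ± 10.2 CPM in WT and 42.2 ± 2.35 CPM in SRF KO (SD, n = 3). Srf followed at 0.485, the Wnt ligand gene Wnt7b at 0.753, Fxyd6, which encodes a modulator of the sodium pump, at 0.86 and the immediate-early factor gene Egr1 at 0.881. The imprinted gene Grb10, an inhibitor of insulin signalling, was at 0.943, the lactate dehydrogenase gene Ldhb at 0.999 and the microRNA locus Mir6935 at 1.02. Reads of a microRNA locus in such libraries can come from its host transcript. Among the WT libraries, Klhl13 was highest in replicate 2, and Fos and Srf were lowest there.

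**Figure D5:**
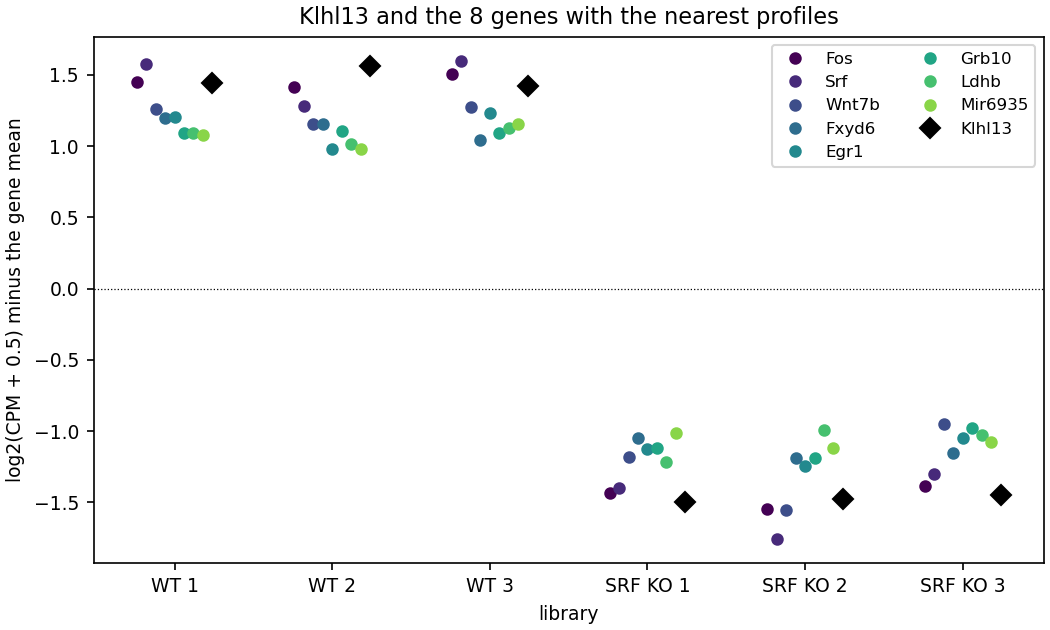
Centred log2(CPM + 0.5) of Klhl13 (diamonds) and of the 8 genes with the nearest profiles (circles) in each library. All 9 genes lie above their own mean in the 3 WT libraries and below it in the 3 SRF KO libraries, with Klhl13, Fos and Srf spanning the widest range.

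The cell type named by the labels was checked against markers fixed for it. Pluripotency genes were present in all libraries, with Pou5f1 at 818.2 ± 52.4 CPM in WT against 772.9 ± 11.3 in SRF KO and Sox2 at 468.3 ± 42.9 against 411.5 ± 25.2 (SD, n = 3), while Nanog fell from 444.0 ± 3.01 to 256.5 ± 2.03 CPM. The 18 pluripotency markers summed to between 8399 and 8975 CPM in WT and between 7041 and 7176 CPM in SRF KO, and 1 was higher and 9 lower (55.6% called, beside 42.4% of all genes). Pou5f1 and Sox2 were not called. Pou5f1 was lower without WT replicate 2 (edgeR adjusted p 0.0134). Sox2, at an edgeR adjusted p of 0.0507 with all libraries, was lower under 6 of 11 alternatives, DESeq2 and the replicate block among them. All 17 tested extraembryonic endoderm markers of 18 listed were higher in SRF KO, beside 21.2% of all genes. Some of them had almost no counts in WT and passed the filter through the SRF KO libraries alone, so their direction was fixed by the filter. The whole list summed to between 623.5 and 656.5 CPM in WT and between 4006 and 4277 CPM in SRF KO. Gata4 rose from 3.78 ± 0.521 to 58.4 ± 3.69 CPM, and Gata6 and Sox17 rose by 3.66 and 3.57 on the log2 scale. All 20 fibroblast markers were higher too (beside 21.2% of all genes), summing to between 1024 and 1182 CPM in WT and between 2010 and 2422 CPM in SRF KO, with Col1a1 at 132.5 ± 17.6 CPM in WT and 268.5 ± 27.9 in SRF KO and Col1a2 at 94.6 ± 8.31 and 200.7 ± 16.8 (SD, n = 3). Trophoblast markers summed to between 166.4 and 180.6 CPM in WT and between 132.0 and 137.4 CPM in SRF KO, with 1 of 11 tested higher and 4 lower (45.5% called) and Cdx2 under 0.5 CPM on average in both groups. The part of these marker changes in the level of Klhl13 was not tested.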

How the data were processed

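Bulk RNA of 6 mouse iPSC libraries was analysed, 3 SRF KO and 3 WT. The authors deposited raw read counts for genes and transposable element subfamilies, judged from the values. Per the labels' protocols the authors removed adaptor, low-quality and empty reads of 150 bases. The submitters' processing notes name the mm10 build and DESeq2, with no role given. The aligner, counter, annotation and strand setting are not given in the sources used here, so reads from a member and an overlapping gene on the other strand (annotated at Klhl9 and Klhl21) cannot be told apart. Genes on the same strand overlap the spans of Klhl13 (the pseudogene Gm14523) and Cul3 (Gm37902 and Gm37262). None of the overlapping genes, on either strand, is among the genes of the deposited counts. Libraries held from 26321602 to 36680156 counts, and counting errors refer to reads.

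The whole table was fitted with edgeR 4.0.16 (R 4.3.3), using filterByExpr (minimum count 10), TMM scaling and the quasi-likelihood test of SRF KO against WT, with Benjamini-Hochberg adjustment over the 15611 entries tested. Standard errors are the fold change divided by the root of the F statistic. The code was tested on simulated data. Replicate pairs differed beyond sampling noise (chi-square per degree of freedom between 1.79 and 14.6), so each library counted once. Alternatives were RLE size factors, DESeq2 1.42.0, no filter, gene entries alone, a replicate block and each library left out in turn; the coding transcript length was added after seeing the data. Gene positions and lengths come from GENCODE M21, which gave 1 entry for 96.2% of genes tested, and coding sequences were aligned in Biopython 1.88. The members and lists were chosen with earlier results of these data known. Named genes were the members, up to 4 called genes per list with the smallest p, the 8 nearest profiles, 5 neighbours on each side of Klhl13, Srf, Xist, the Y-linked genes and defining markers. Of the genes this rule names, 1 is not reported here. Ivns1abp, Gm9, Incenp, Birc5, Cdca8, Tsix, Jpx, Ftx, Rlim and Dusp9 were named after their values were seen.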

Additional observations from a re-analysis of the deposited data

How the results depend on the processing

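The fold changes of the 5 members moved by less than their spread between libraries under every alternative run, Klhl13 staying between -2.99 and -2.92 on the log2 scale. With 1 library left out at a time, from 2457 to 3652 genes were called higher and from 2274 to 3809 lower. Over the 7 pathway lists together, 13 genes were higher and 21 lower with all libraries. By list, from 6.67% to 42.9% were called, beside 42.4% of all genes. With 1 library left out, the number higher ranged from 8 (leaving out SRF KO replicate 1 or 3) to 18. The number lower ranged from 14 to 32 (the latter leaving out WT replicate 2). Of all genes, from 31.6% to 49.7% were called in those fits, with 49.7% without WT replicate 2. The median log2 fold change of the pathway genes lay between -0.0828 and -0.0459 (-0.0459 without WT replicate 2). For these changes the cause was not tested. Deviations from the group means correlated at 0.0424, 0.203 and 0.0965 between libraries of equal number. Between SRF KO and WT libraries of unequal number the correlations lay between -0.189 and 0.109. Whether libraries of equal number share a culture or batch was not tested. Under the replicate block 17 pathway genes were higher and 34 lower, while 50.8% of all genes were called. Klhl13 was at -2.96 in that fit, and Klhl21 passed the threshold. DESeq2 called Klhl13 alone of the 5 members. The fold change of Cul3 turned from -0.07 to 0.04 without WT replicate 2.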
